A study of Mus musculus with 53 samples.

Results

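Partial hepatectomy, the surgical removal of part of the liver, leaves a remnant that grows back, and this experiment sampled that remnant in mice labelled as knockouts of Bmp8b, a signalling protein that belongs to the bone morphogenetic proteins (BMPs). The comparison sets 4 livers labelled Bmp8b Knockout and taken 3 days after the operation against 5 wild-type livers that were the tissue resected at day 0, the baseline control of the labels. These 9 libraries were chosen by their titles and labels alone, out of 53 in the series and 14 in the hepatectomy experiment. The other 5 libraries of that experiment are wild-type livers at day 3, which are used here to set the labelled knockout response beside that of wild type. All 14 whole-liver libraries came from male C57BL/6J mice 16 weeks old, the wild-type animals being littermates. Mouse numbers 12 to 16 recur in the wild-type titles of both days, and whether they are the same animals is not stated. No labelled knockout liver at day 0 is among the samples, so the genotype label and the operation change together between the sides, and their parts cannot be told apart in this comparison alone. How the allele was made and which exons it removes are not given in the sources used here, and nothing says how many litters or days of surgery the mice came from. The p-values therefore measure the spread between these samples.

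Liver regrowth after resection proceeds mainly by division of the hepatocytes that remain, which leave quiescence, copy their DNA and divide while still carrying the metabolic and secretory work of the organ. Growth factors and cytokines acting through receptors such as those for EGF, HGF and interleukin 6 start the process, and TGF-beta and BMP family ligands act as brakes or modulators. In mice the wave of hepatocyte DNA synthesis and mitosis peaks in the first days after surgery, and stellate, endothelial and other non-parenchymal cells divide and lay down matrix around and after it.

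Total counts ran from 2450358 to 3877057 in the labelled knockout libraries and from 2528341 to 6914274 in the day 0 libraries. Levels are in CPM, counts scaled by normalized library total and not by gene length, so a level is compared between livers and not between genes. The first principal component, with 36.7% of the variance of the tested genes, separated day 3 from day 0. On it the day 0 livers lay between -47.7 and -33.6, wild-type day 3 livers between 15.8 and 27.7, and labelled knockout livers 18, 19N and 20 at 23.4, 30.5 and 24.5. Labelled knockout liver 17 lay at 3.47, nearer to day 0 than any other day 3 liver. Every day 3 library, of either genotype, carried the i5 sequencing index D507, and the day 0 libraries carried D505 or, for liver 16, D506, so that index and day cannot be told apart. Hepatocyte markers, 8 genes that include albumin, summed to 122932 to 147983 CPM in the labelled knockout livers and 81297 to 103044 CPM at day 0. Most of that sum was albumin, and 7 of the 8 markers were not called, with a list median log2 change of -0.10. The tissue label therefore matched the markers. The 5 nuclear-retained long RNAs summed to 285 to 618 CPM in labelled knockout livers and 822 to 1192 CPM at day 0. Wild type at day 3, at 399 to 883 CPM, overlapped both. Of the 3 tested, Neat1 fell (log2 -1.39, adjusted p = 0.00022 by edgeR's quasi-likelihood test) and Malat1 and Meg3 were not called; their part in the results below was not tested.

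Bmp8b itself gave no check of the knockout label. The labelled knockout livers held 1.08, 2.63, 2.37 and 2.40 CPM (livers 17, 18, 19N and 20), and the day 0 livers held 0.746, 0, 0.304, 0 and 0 CPM (livers 12N, 13, 14, 15 and 16). All 4 labelled knockout livers were above all 5 day 0 livers. On the scale log2(CPM + 0.5) the difference of means was 1.94, and the two-sided exact permutation test gave p = 0.0159, the smallest that 4 against 5 livers can give. The wild-type livers at day 3 held 0.519, 0.890, 0.358, 1.31 and 1.16 CPM, a range that overlaps liver 17 only. Totals per gene do not show which exons were read, and the gene overlaps Ppie, Oxct2b and Gm17244 on chromosome 4, so that without a stated strand setting reads of these genes cannot be separated. The livers are called labelled knockout throughout. The paralog Bmp8a had no count in any of the 14 libraries.

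Of 11026 genes tested, 1348 (12.2%) differed between labelled knockout livers at day 3 and wild-type livers at day 0 at an adjusted p under 0.05. Tests were quasi-likelihood tests of edgeR, with p adjusted by Benjamini-Hochberg over all tested genes, and a gene past that threshold is said to have risen, fallen or changed. The 797 genes that rose made up 7.23% of those tested, and the 551 that fell made up 5%. Rises were also larger, since 400 genes rose and 116 fell by at least 1 on the log2 scale. The 4 livers lay entirely above or entirely below the 5 day 0 livers for 967 of the called genes, and for 1362 of all tested genes (12.4%). The median log2 fold change of all tested genes was 0.0019. Against the same day 0 livers, wild-type livers at day 3 gave 1915 calls (17.4%), of which 1088 (9.87%) were rises and 827 (7.5%) falls. Both day 3 groups were set against the same day 0 livers, and the wild-type changes are given below for part of the lists. Their levels at day 3 were tested against each other directly, and 17 genes (0.154%) were called.

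**Figure D1:**
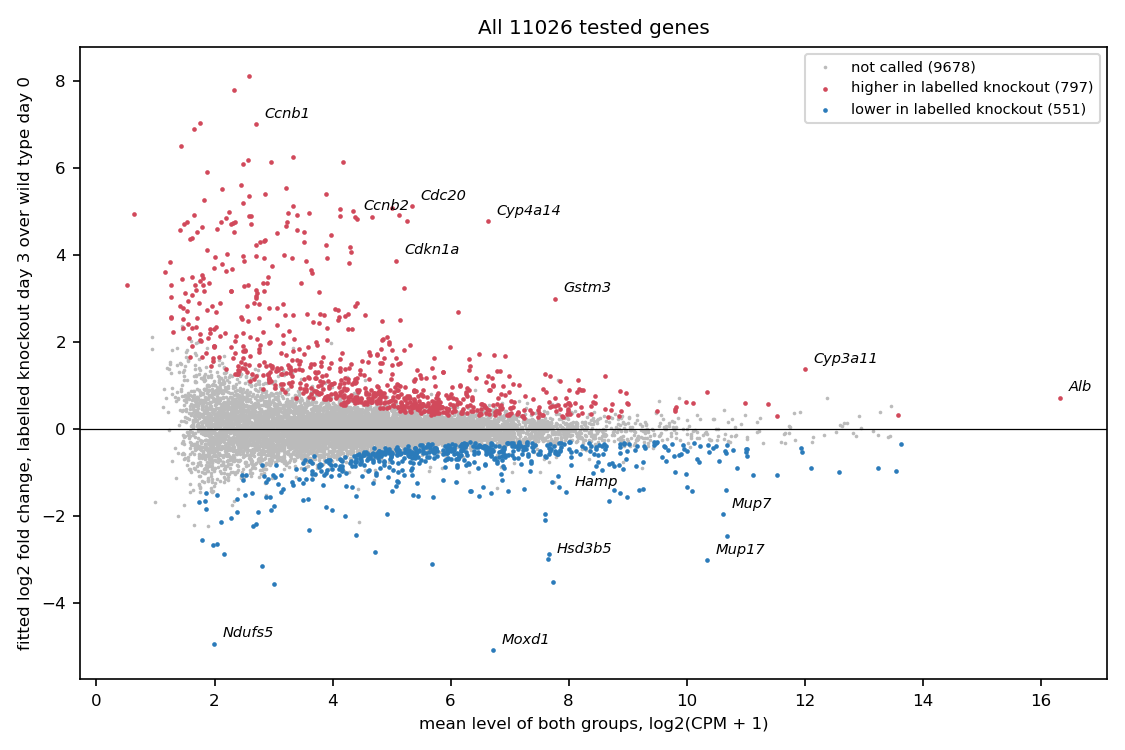
Fitted log2 fold change of labelled knockout livers at day 3 over wild-type livers at day 0 (vertical axis) against mean level of both groups as log2(CPM + 1) (horizontal axis), 1 point per tested gene. Red points are the 797 genes that rose and blue points the 551 that fell; the largest rises are of cell division genes with low levels and the largest falls include Moxd1, Hsd3b5 and the Mup genes.

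Cell division genes made the largest rises. Of 28 genes listed for mitosis and chromosome segregation, 27 could be tested and 27 rose, with log2 fold changes from 2.78 (Cdca8) to 7.00 (Ccnb1) and a median of 4.88. At day 0 none of the 27 had a median of 2.92 CPM or more, the level the filter on low counts asks for, so all of them passed it through their day 3 level and their count is a description only. Cyclin B2 (Ccnb2), a partner of the mitotic kinase, stood at 23.6, 35.0, 48.2 and 47.0 CPM in labelled knockout livers 17, 18, 19N and 20 and at 0.895, 0.565, 2.13, 2.10 and 0.784 CPM at day 0. The groups did not come near each other, and the fitted fold was 29.4 (log2 4.88 ± 0.34 SE). Cdk1, that mitotic kinase, stood at 16.8, 29.3, 62.5 and 42.7 CPM against 0.282 to 2.13 CPM at day 0. Its fitted fold was 32.1, and liver 17 was the lowest of the 4 for both genes. The 27 tested mitosis genes all rose in wild type at day 3 as well, with a median log2 change of 4.39.

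The promoters of the 2 mitosis genes with the smallest p, Ccnb2 and Cdk1, and of the DNA replication gene with the smallest p, Rrm2, are shown because these genes moved together and their promoters can be read for the short motifs known from cell cycle genes. Each is the 250 bases before the transcription start from RefSeq on GRCm38.p6, written 5′ to 3′ on the gene's strand. The windows are chr9:70421555-70421804 (minus strand) for Ccnb2, chr10:69352913-69353162 (minus strand) for Cdk1 and chr12:24708004-24708253 (plus strand) for Rrm2. Capitals mark CCAAT, the box bound by NF-Y (ATTGG where it lies on the other strand), TTTGAA, the core of the cell cycle homology element, and TTGGCGC, an E2F site.
Ccnb2: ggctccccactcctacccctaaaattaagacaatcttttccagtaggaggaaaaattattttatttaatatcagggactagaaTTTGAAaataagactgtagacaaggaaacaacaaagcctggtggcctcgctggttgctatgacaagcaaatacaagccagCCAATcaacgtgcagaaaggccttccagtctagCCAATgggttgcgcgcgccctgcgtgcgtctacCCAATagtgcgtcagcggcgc
Cdk1: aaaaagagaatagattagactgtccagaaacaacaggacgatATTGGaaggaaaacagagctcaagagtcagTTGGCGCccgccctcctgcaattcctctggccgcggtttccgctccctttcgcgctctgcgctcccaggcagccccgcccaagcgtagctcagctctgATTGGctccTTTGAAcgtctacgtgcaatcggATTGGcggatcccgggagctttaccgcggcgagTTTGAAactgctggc
Rrm2: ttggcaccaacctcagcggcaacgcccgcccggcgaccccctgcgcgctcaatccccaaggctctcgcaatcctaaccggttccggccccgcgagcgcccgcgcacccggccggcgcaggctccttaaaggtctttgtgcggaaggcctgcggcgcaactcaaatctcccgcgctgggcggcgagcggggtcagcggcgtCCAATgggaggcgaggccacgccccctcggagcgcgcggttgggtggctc
The Ccnb2 window held 3 CCAAT boxes and 1 TTTGAA, that of Cdk1 held 3 CCAAT boxes, 2 TTTGAA and 1 TTGGCGC, and that of Rrm2 held 1 CCAAT box.

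Among 32851 RefSeq promoter windows of the same length, CCAAT was found on either strand in 33.8%. It was found in 18 of the 24 mitosis list promoters that could be matched by symbol (75%) and in 17 of 25 for DNA replication (68%). CCAAT together with TTTGAA or its variant TTTAAA stood in 10 of the 24 mitosis promoters (41.7%) and in 8.78% of all windows. GCGGGAA, another E2F site, stood in 8 of the 25 DNA replication promoters (32%), in none of the 24 mitosis promoters and in 3.82% of all. TTGGCGC stood in 2 of the 24 mitosis promoters (8.33%), in 3 of the 25 DNA replication promoters (12%) and in 1.97% of all. TTTAAA reads the same on both strands and was counted once. These matches describe letters and not binding.

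Other named rises were of the same kind. Pif1, a DNA helicase, stood at 3.25, 7.15, 19.0 and 10.7 CPM in livers 17, 18, 19N and 20 and had no count in any day 0 library, which with 3 counts allowed over that group makes it at least 66.4-fold higher. Cyclin B1 (Ccnb1) stood at 4.33, 7.15, 15.0 and 17.6 CPM, with 1 count in all day 0 libraries together. Its ratio was 219, with a 95% counting interval from 38.7 to 8714 that covers counting error only. Arhgef39 stood at 1.90, 13.9, 20.2 and 17.3 CPM with 3 day 0 counts, all in liver 15, a ratio of 84.1 (28.2 to 412). Hmmr, which binds hyaluronan and spindle microtubules, Cenpe, a kinetochore motor, and Cdc20, an activator of the anaphase-promoting complex, rose by fitted log2 changes of 6.13, 5.55 and 5.11. The day 0 levels behind these folds rest on few counts. Without day 0 liver 15 the log2 change was 8.26 for Ccnb1 and 8.52 for Arhgef39, without liver 12N it was 7.46 for Hmmr, and without liver 14 it was 6.20 for Cenpe, all still called.

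**Figure D2:**
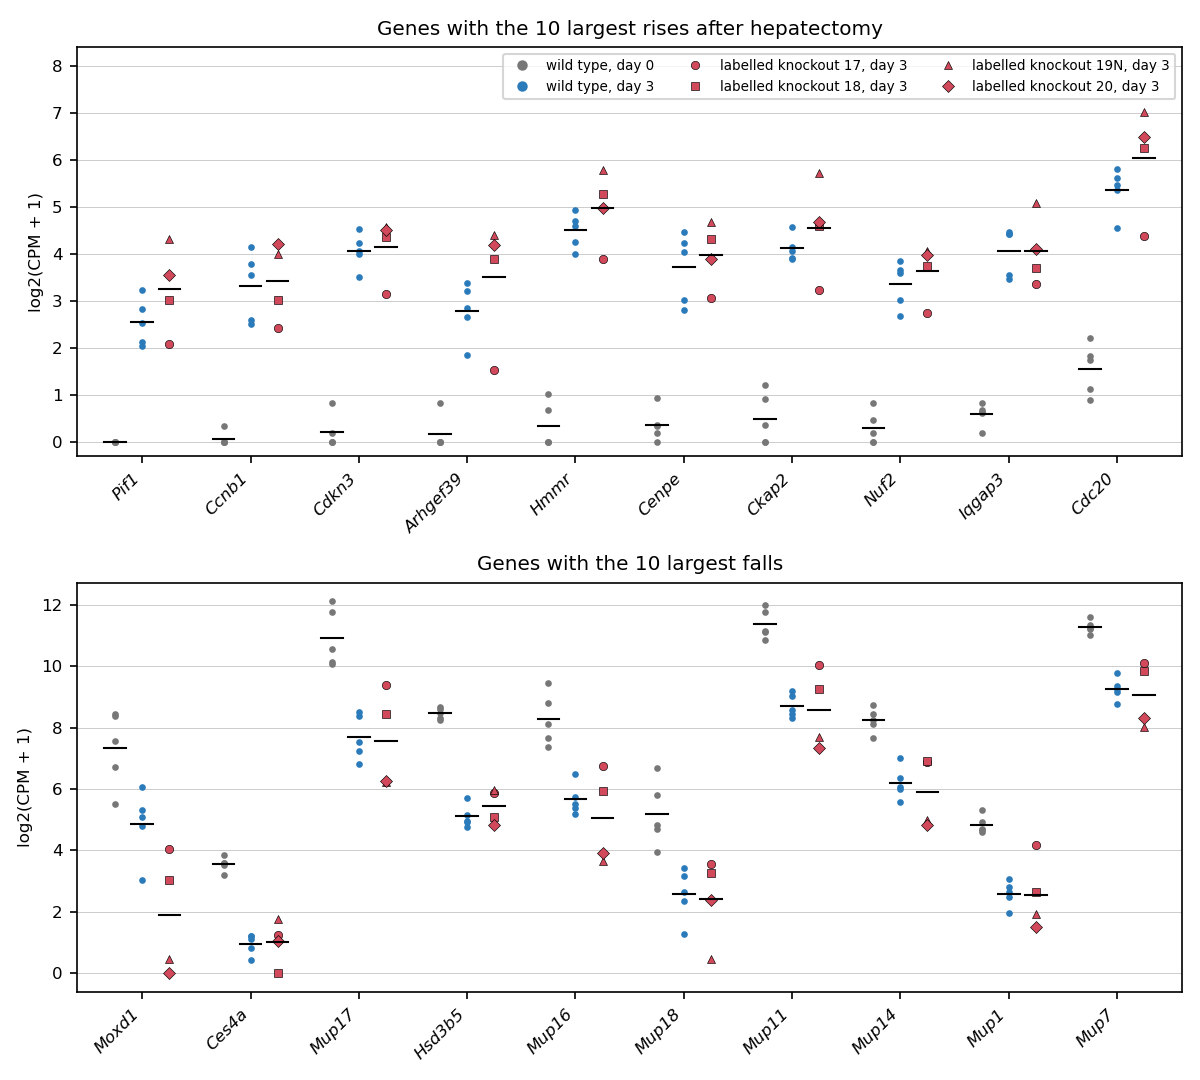
Level of each gene as log2(CPM + 1), 1 point per liver, with the group mean as a black bar, for wild type at day 0 (grey, 5 livers), wild type at day 3 (blue, 5 livers) and labelled knockout at day 3 (red, 4 livers with a symbol each). In the upper panel every day 3 liver lies above every day 0 liver. In the lower panel the labelled knockout livers lie below the day 0 livers. There liver 17 is the highest of the 4 for Moxd1, Mup17, Mup16, Mup18, Mup11, Mup1 and Mup7.

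DNA replication genes rose by less and from higher day 0 levels. Of 29 tested genes 22 rose and 1 fell, with a median log2 fold change of 1.39. Among the 21 whose day 0 median already reached the filter level, 15 rose and 1 fell. Rrm2, the regulated subunit of ribonucleotide reductase, stood at 15.4, 19.9, 39.1 and 33.6 CPM against 2.83, 3.39, 5.17, 4.72 and 4.31 CPM at day 0, a rise of 6.73-fold (log2 2.75 ± 0.29 SE, edgeR adjusted p = 3.1e-06). Rrm1, the other subunit, rose 2.97-fold and Mcm2, of the replicative helicase, 2.83-fold. Uhrf1, which couples DNA methylation to replication, rose by log2 4.31, or 5.38 without day 0 liver 15. Mcm10 went the other way, from a mean of 132 CPM at day 0 to 45 CPM (log2 -1.53). Livers 19N and 20 stood highest on this list, with mean levels 1.68 and 1.41 above the day 0 mean in log2(CPM + 1), against 0.73 and 0.84 in livers 17 and 18. The count of rises fell to 13 without liver 19N and 14 without liver 20, and it was 12 when a change beyond 1.5-fold was required. Wild type at day 3 gave 15 rises and 1 fall among the 29, with a median log2 change of 1.08.

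Regulators upstream of S phase rose in part. Of 17 tested cyclins, kinases and inhibitors of G1, 7 rose and none fell. Of the 13 whose day 0 median reached the filter level 4 rose, and the other 3 rises, Ccna2 among them, lay below it at day 0. Ccnd1, cyclin D1, which growth factors induce, stood at 82.0, 170, 136 and 154 CPM against 32.5 to 55.0 CPM, a rise of 3.31-fold with no overlap (edgeR adjusted p = 1.9e-05). Cdkn1a, the p53-induced inhibitor p21, stood at 49.8, 59.4, 66.4 and 68.3 CPM against 3.28, 1.41, 3.95, 7.08 and 5.49 CPM. It rose 14.6-fold (log2 3.87 ± 0.23 SE, edgeR adjusted p = 2.9e-09). In wild-type livers its log2 change was 3.12, and the difference between the genotypes at day 3 (0.75 ± 0.19) had an edgeR adjusted p of 0.13. Of 14 p53 target genes 8 rose and none fell (7 of the 12 that reached the filter level at day 0), among them Btg2, an antiproliferative factor, at 3.30-fold, and Mdm2, the ligase that degrades p53, at log2 0.42. Without liver 20, 4 of these were called.

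Immediate early genes, which are induced within hours of surgery, were mixed at day 3. Of 12 tested, 5 rose and 1 fell, and of the 9 that reached the filter level at day 0, 4 rose and 1 fell. Jun stood at 30.3, 92.2, 57.7 and 44.6 CPM against 10.2 to 28.2 CPM, and Atf3 at 2.98, 18.1, 9.49 and 13.6 CPM against 0.565 to 2.43 CPM. Both rose without overlap, by 3.53-fold and 10.2-fold. The phosphatase gene Dusp1 fell by 1.51 on the log2 scale. Ligands and receptors of regeneration gave 3 rises and 6 falls among 25 tested, with 1 rise left without liver 19N. Egfr, the EGF receptor, stood at 496, 739, 500 and 652 CPM against 933 to 1443 CPM at day 0, a 1.99-fold fall (edgeR adjusted p = 8.7e-05). Lifr, the leukaemia inhibitory factor receptor, fell 2.77-fold, and Ghr, the growth hormone receptor, fell 1.46-fold. Igfbp1, an insulin-like growth factor binding protein, rose by log2 1.90, but without liver 17, its highest at 210 CPM, the change was 1.20 and was not called (edgeR adjusted p = 0.104).

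Cytoskeletal genes rose with the division genes. Of 15 tested tubulin and actin genes 10 rose and none fell (9 of the 14 that reached the filter level at day 0). The beta-tubulin gene Tubb6 stood at 24.4, 74.1, 92.1 and 71.2 CPM against 1.96 to 10 CPM, and rose 9.47-fold. Tubb4b stood at 86.4, 156, 216 and 171 CPM against 52.5 to 73.0 CPM. Its rise of 2.51-fold (log2 1.33) compares with log2 0.60 in wild type, and the difference between genotypes was not called (edgeR adjusted p = 0.23). Tagln2 and Tpm4, which bind actin, rose 2.81-fold and 2.51-fold. Of 12 annexin, S100 and galectin genes 5 rose, all of them among the 8 that reached the filter level at day 0, with Anxa2 at 3.25-fold and Anxa5 at 2.02-fold, both binders of membrane phospholipid. The galectin gene Lgals1 rose 2.88-fold. At day 3 in wild type, 8 of the tubulin and actin genes rose and 1 fell, and 8 of the annexin, S100 and galectin genes rose.

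Matrix genes rose in 15 of 29 tested and fell in none. Of the 24 whose day 0 median reached the filter level 12 rose, and the other 3 rises, Loxl2 among them, lay below it at day 0. Col4a1, a basement membrane collagen, stood at 85.3, 107, 118 and 70.2 CPM against 41.5 to 53.9 CPM and rose 2.01-fold without overlap (edgeR adjusted p = 0.00012). Col1a1, of fibrillar collagen, stood at 34.7, 34.6, 144 and 21.9 CPM against 7.01, 16.1, 12.8, 9.70 and 5.49 CPM, with liver 19N far above the rest. Its log2 change was 2.50 (edgeR adjusted p = 0.0067). Loxl2, a collagen crosslinking enzyme, rose 5.88-fold, Lamc1, a laminin chain, 1.93-fold and Sparc, a matrix glycoprotein, 1.91-fold. Without liver 19N 7 of the 29 were called, 9 with limma voom weights, and 3 with a change beyond 1.5-fold required. Wild type at day 3 gave 17 rises and no fall among the 29. The median log2 change was 1.22 there and 1.01 in labelled knockout livers.

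Some markers of other cells rose as well. The summed level of 9 activated stellate cell and myofibroblast markers was 43.1 to 106 CPM at day 0 and 109 to 479 CPM in the labelled knockout livers. Of its 8 tested members 4 rose (Postn, Tagln, Col3a1 and Col1a1), and 1 without liver 19N. Col3a1 and Col1a1 are themselves collagens, so this list is not separate from the matrix genes. Among 10 quiescent stellate cell markers 1 fell and none rose. Their sum overlapped, at 171 to 206 CPM in labelled knockout livers and 154 to 279 CPM at day 0. Acta2, smooth muscle actin, stood at 7.04, 3.76, 14.2 and 0.800 CPM against 0.786 to 5.37 CPM and did not pass the test (edgeR adjusted p = 0.30). The 8 mesothelial markers summed to 546 to 1081 CPM against 303 to 438 CPM, and the 2 tested members that reached the filter level at day 0 rose, Krt8 and Krt18. Msln and Upk3b were tested only because of their day 3 level. Most of that sum was these keratins, which hepatocytes also express. Msln, mesothelin, stood at 0.542, 3.76, 20.6 and 1.60 CPM against at most 0.392 CPM, and Upk3b at 0.542, 6.77, 5.14 and 1.07 CPM with none at day 0. Liver 19N was also the highest for Wt1, Lrrn4 and Gpm6a, mesothelial genes too low to test. The part of these cells in the matrix rises was not tested, and in whole tissue fewer cells of a type cannot be told apart from less RNA per cell.

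Markers of other cell types gave calls in both directions, where 12.2% of all tested genes were called. The 9 Kupffer cell markers summed to 401 to 896 CPM against 790 to 874 CPM, with 1 called rise (Marco, a scavenger receptor, log2 2.48) and 1 called fall (C6, log2 -0.85). Of 12 sinusoidal endothelial markers only Kdr, a VEGF receptor, changed (log2 -0.50). Neutrophil markers summed to 3.16 to 7.74 CPM against 1.18 to 4.46 CPM at day 0, T and NK cell markers to 2.13 to 5.42 CPM against 3.34 to 7.31 CPM, and B and plasma cell markers to 7.12 to 13.0 CPM against 10.2 to 16.1 CPM, with no call among them. Of 4 tested monocyte-derived macrophage markers Cd9, a membrane tetraspanin that other cells also carry, rose (log2 0.83). Of 5 tested erythroid markers Alas2, of heme synthesis, fell (log2 -0.63). No call was made among 5 tested cholangiocyte and ductular markers. The adipocyte list summed to 780.2 to 1889 CPM against 2249 to 4538 CPM, a sum carried by Car3, which hepatocytes also express and which fell (log2 -1.04), and the acinar list's 1 tested gene, Cela1, fell (log2 -0.74). Adipoq, Cfd, Lep, Plin1 and Retn had no count there, nor had 7 of 9 pancreatic acinar genes.

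**Figure D3:**
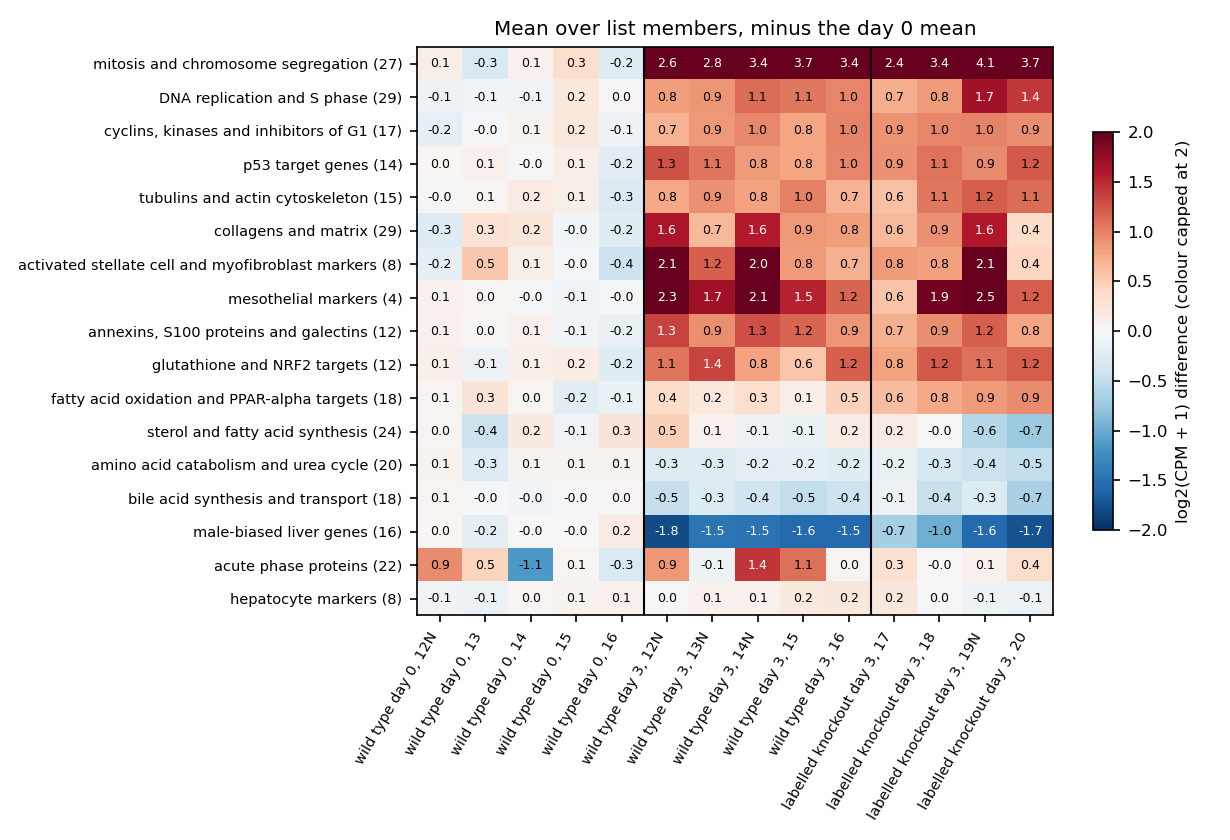
Mean over the tested members of each gene list (number in brackets) of log2(CPM + 1), minus the mean of the 5 day 0 livers, 1 column per liver. The mitosis row runs from 2.4 to 4.1 in the labelled knockout livers, the fatty acid oxidation row from 0.6 to 0.9 against 0.1 to 0.5 in wild type at day 3, and the male-biased row splits livers 17 and 18 (-0.7 and -1.0) from 19N and 20 (-1.6 and -1.7).

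Of 16 tested genes that are known to be higher in male than in female liver, 10 fell and none rose, with a median log2 change of -0.91. Hsd3b5, a steroid dehydrogenase, stood at 57.4, 32.7, 62.1 and 27.2 CPM against 315, 306, 407, 356 and 390 CPM at day 0, a 7.92-fold fall (log2 -2.99 ± 0.22 SE, edgeR adjusted p = 3.3e-08). Mup7, a major urinary protein that carries pheromones, stood at 1093, 918, 260 and 316 CPM against 2043 to 3103 CPM and fell 3.88-fold. Mup17, Mup16, Mup18, Mup11, Mup14 and Mup1 fell between 8.04-fold (Mup17) and 4.01-fold (Mup1). The Mup genes are near-identical copies among which reads can be split, so the share of each is uncertain, and Mup17, Mup16, Mup11 and Mup1 fell further without liver 17, with log2 changes of -3.83, -3.66, -3.09 and -3.13.

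Livers 17 and 18 kept more of the male-biased expression than 19N and 20. The mean of the list lay 0.66 and 0.97 below day 0 in livers 17 and 18 and 1.56 and 1.74 below it in livers 19N and 20, in log2(CPM + 1). All 5 wild-type livers at day 3 lay between 1.47 and 1.78 below it. Cyp4a12a, a male-specific fatty acid hydroxylase, stood at 192, 284, 59.3 and 52.0 CPM against 133 to 498 CPM and was not called (edgeR adjusted p = 0.37). In wild type 15 of the 16 genes fell, with a median of -1.72, but no member was called between the genotypes at day 3, where the median difference was 0.33. Outside the list, Moxd1, a monooxygenase, stood at 15.4, 7.15, 0.395 and 0 CPM against 347, 188, 44.1, 104 and 334 CPM, a 33.8-fold fall (edgeR adjusted p = 8e-05) that was log2 -6.46 without liver 17. Ces4a, a carboxylesterase, fell 8.81-fold.

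Genes of hepatocyte metabolism fell by less. Bile acid genes gave 8 falls and 1 rise among 18 tested. Cyp7b1, of the alternative synthesis pathway, stood at 372, 167, 174 and 90.4 CPM against 565 to 723 CPM and fell 3.11-fold. It is also a member of the male-biased list. Slc10a1, the main uptake transporter, fell 1.88-fold. Abcb4, which exports phospholipid into bile, rose (log2 0.62), a call lost without liver 18. Amino acid catabolism and urea cycle genes gave 10 falls and no rise among 20, the largest that of Sds, serine dehydratase (log2 -0.88). Prodh, proline oxidase, stood at 120, 107, 106 and 94.2 CPM against 158 to 213 CPM, a 1.73-fold fall without overlap (edgeR adjusted p = 0.00016). These falls were small: with a change beyond 1.5-fold required, none of the amino acid genes and 1 bile acid gene was called, and the amino acid count was 6 without liver 19N and 5 without liver 20. Wild-type livers at day 3 gave 8 falls and 1 rise among the bile acid genes, and 9 falls and no rise among the amino acid genes.

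Among glucose and sterol genes the calls were falls, where 12.2% of all tested genes were called and 5% fell. Of 19 tested genes of gluconeogenesis and glycolysis 3 fell and none rose. In wild type at day 3, 3 genes of this list rose and 1 fell. Pklr, pyruvate kinase, stood at 171, 173, 125 and 111 CPM against 182 to 420.2 CPM and fell 2.09-fold without overlap (edgeR adjusted p = 0.0065), and Gckr fell 1.48-fold. Of 24 sterol and fatty acid synthesis genes 4 fell and none rose. Fdps, of the isoprenoid pathway, stood at 30.1, 22.9, 14.2 and 13.6 CPM against 26.3 to 64.7 CPM and fell 2.26-fold. The falls of Fdft1, Sqle and Cyp51 were each lost when 1 of several livers was left out. The list mean lay 0.57 and 0.74 below day 0 in livers 19N and 20 but 0.17 above it in liver 17, and 9 genes were called without liver 17 against 1 without any other labelled knockout liver, 1 without day 0 liver 14 or 16 and 2 without day 0 liver 12N. In wild-type livers 3 genes of the list rose and none fell.

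Fatty acid oxidation genes went up. Of 18 tested, 8 rose and none fell, with a median log2 change of 0.37, against 4 rises and 1 fall in wild type with a median of 0.15. Cyp4a14, a fatty acid hydroxylase induced through PPAR-alpha, stood at 86.4, 112, 253 and 305 CPM against 2.39, 19.2, 8.82, 3.93 and 1.18 CPM. Its rise was 27.3-fold (log2 4.77 ± 0.52 SE, edgeR adjusted p = 4e-06), or log2 5.57 without day 0 liver 13. Pdk4, which holds back glucose oxidation, rose by log2 2.84, and Acot1, an acyl-CoA thioesterase, by 1.98. Ehhadh, of peroxisomal beta-oxidation, stood at 333, 358, 395 and 361 CPM against 173 to 230 CPM and rose 1.80-fold (edgeR adjusted p = 6e-05). Vnn1, pantetheinase, rose 2.92-fold and Acadm, medium-chain acyl-CoA dehydrogenase, 1.53-fold. Plin2, which coats lipid droplets, stood at 358, 568, 825 and 798 CPM against 257 to 571 CPM. It was called (log2 0.82, edgeR adjusted p = 0.019), but not without any 1 of livers 19N and 20 and of day 0 livers 14 and 16.

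Drug and antioxidant enzymes moved in both directions. Of 24 cytochrome P450 and conjugation genes 5 rose and 6 fell: Cyp3a11 rose 2.61-fold, from a mean of 2273 to 5942 CPM, while Cyp2e1, the pericentral ethanol-oxidizing enzyme, fell (log2 -0.88). Targets of NRF2, the antioxidant regulator, gave 9 rises and no fall among 12 tested, and 8 rises among the 10 that reached the filter level at day 0. Gstm3, a glutathione transferase, stood at 310, 605, 298 and 338 CPM against 29.1 to 59.8 CPM and rose 7.97-fold (edgeR adjusted p = 5.9e-06). Gclc, the rate-limiting subunit of glutathione synthesis, rose 1.51-fold, and Nqo1 and Hmox1, both classical targets, rose by log2 1.18 and 1.15. Of 19 genes of hepatocyte secretion and identity 2 rose and 3 fell: albumin (Alb) rose 1.65-fold with no overlap and Cebpa, a factor of hepatocyte quiescence, fell 1.56-fold from 319 to 204 CPM. Wild type at day 3 gave 7 rises and 11 falls on the cytochrome P450 and conjugation list. It gave 7 rises and no fall among NRF2 targets, and 4 rises and 4 falls among genes of secretion and identity.

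Of 22 acute phase genes tested, 1 rose and 2 fell, with a median log2 change of 0.14. That is near the share called over all tested genes (12.2%). In wild type 8 rose and 2 fell, with a median of 0.62. Lcn2, lipocalin 2, stood at 328, 233, 197 and 489 CPM in the labelled knockout livers, inside the day 0 range of 12.2 to 461 CPM but for liver 20. Day 0 livers spread widely on this list, and no member was called between the genotypes at day 3. The calls of Crp and Serpina3m were each lost when 1 of several livers was left out.

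BMP pathway genes gave few calls, in both directions, where 12.2% of all tested genes were called. Of 15 tested ligands and antagonists 3 rose and 1 fell, with a median log2 change of 0.03. Of 14 receptors and SMADs 1 fell, with a median of -0.13. Gdf2, the ligand BMP9, stood at 18.1, 22.2, 22.1 and 19.2 CPM against 6.41 to 13.4 CPM and rose 2.08-fold. Fst, follistatin, an activin antagonist, rose 3.94-fold, and its call was lost without liver 17. Smad9, a receptor-regulated SMAD, stood at 5.14, 6.77, 5.93 and 6.67 CPM against 11.3, 19.8, 18.9, 18.1 and 4.31 CPM and fell 2.37-fold. Among wild-type livers at day 3, 3 ligands and antagonists rose and 2 fell, and 1 gene of the receptors and SMADs rose.

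Hamp, hepcidin, the iron hormone that BMP signalling induces in hepatocytes, varied widely among the labelled knockout livers. It stood at 16.0, 114, 275 and 129 CPM against 331 to 428 CPM at day 0, below the day 0 range in all 4 livers. The fall was 2.73-fold (log2 -1.45 ± 0.45 SE, edgeR adjusted p = 0.040). The call was lost on leaving out any day 0 liver or labelled knockout liver 18 or 20, and without liver 19N the change was log2 -2.07 and stayed called. Of 8 BMP-SMAD targets tested, Hamp and Smad9 fell. Id1, Id2, Id3 and Smad7 were not called, Id3 standing at 13.0, 55.7, 30.0 and 35.0 CPM against 33.4 to 80.3 CPM (edgeR adjusted p = 0.083). Wild-type livers at day 3 showed falls in 3 of the 8 targets and no rise. The median log2 change was -0.83 there and -0.36 in labelled knockout livers, and no target was called between the genotypes.

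The test of the labelled knockout livers against wild-type livers at day 3, both with index D507, compares levels at day 3. With no labelled knockout liver at day 0, a difference present before surgery cannot be told apart from a different response. Of the 17 genes called, 13 (0.118%) were higher and 4 (0.0363%) lower in labelled knockout livers. For each of them the day 3 groups did not overlap, which adds no support, since the test of these same livers picked the genes. Without a correction 1001 genes had a p under 0.05. No gene of the mitosis, DNA replication, matrix or male-biased lists was among the 17. With 0.154% of all tested genes called, lists of this size would be likely to hold none. Their absence therefore does not show that the responses were alike. The count of called genes was 63 by DESeq2 (41 higher and 22 lower) and 182 without a filter on low counts (66 higher and 116 lower). Leaving out 1 library gave between 3 (labelled knockout liver 20 or wild-type day 3 liver 15) and 40 (labelled knockout liver 17), and C77080, BC002163 and Ndufs5 were called in all 14 of those fits. Cyp4a14 was called in 11 of them, Nr0b2 in 10, Fam210a in 9 and the others in 2 to 7.

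**Figure D4:**
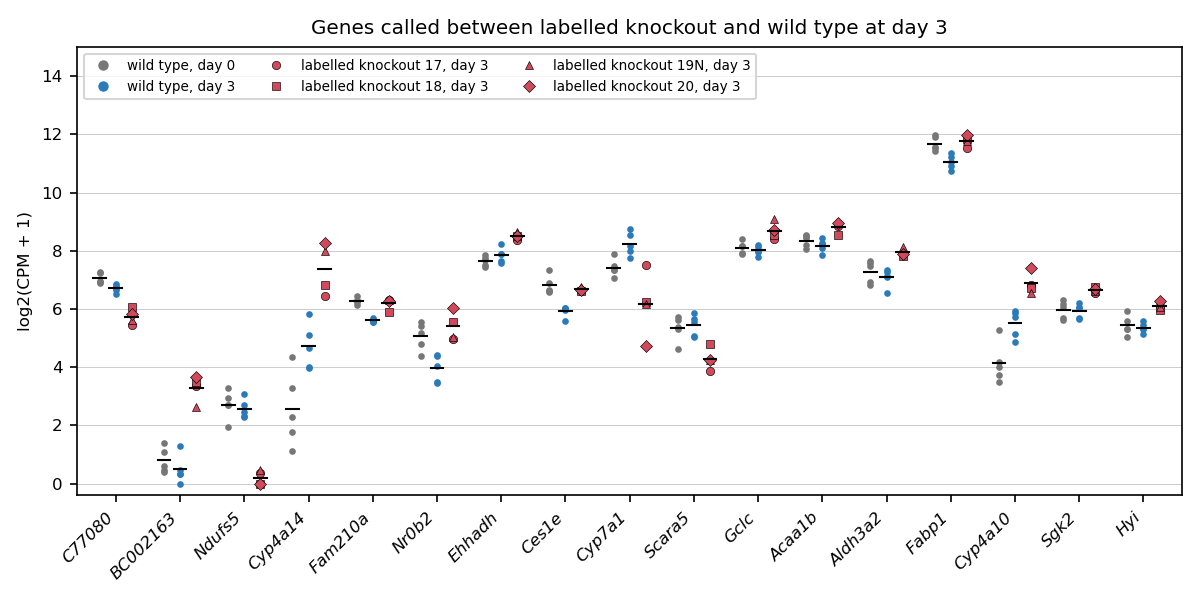
Level as log2(CPM + 1) of the 17 genes called between labelled knockout (red) and wild-type (blue) livers at day 3, with the day 0 livers in grey, 1 point per liver and the group mean as a black bar. Red and blue points do not overlap for any of the genes, which were picked by the test of these same livers. For Ces1e and Fabp1 the red points lie within the grey range, and for Cyp4a14, Cyp4a10, Ehhadh and BC002163 above it.

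Of the 18 tested fatty acid oxidation genes 3 were higher in labelled knockout livers. Cyp4a14 was higher than in wild type at day 3 (14.8 to 55.8 CPM) by log2 2.73 ± 0.45 (edgeR adjusted p = 0.018). Cyp4a10, its neighbour, stood at 112, 105, 93.3 and 168 CPM against 28.4 to 60.5 CPM in wild type at day 3 and 10.2 to 37.8 CPM at day 0. The rise over day 0 was 6.44-fold, and the difference between genotypes log2 1.37 ± 0.27 (edgeR adjusted p = 0.044). Ehhadh (log2 0.64), Acaa1b, a peroxisomal thiolase (0.65), Aldh3a2, a fatty aldehyde dehydrogenase (0.85), and Fabp1, the liver fatty acid binding protein (0.70), were also higher. Fabp1 was not changed from day 0 by the test (log2 0.08, edgeR adjusted p = 0.77) but fell in wild type (-0.62).

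Of the 18 tested bile acid genes 1 was higher and 1 lower. Nr0b2, the repressor SHP, stood at 30.1, 46.3, 31.6 and 64.8 CPM, with livers 17 and 19N inside and livers 18 and 20 above the day 0 range of 20.1 to 45.8 CPM. In wild type at day 3 it stood at 10.1 to 20.5 CPM. The difference was log2 1.51 ± 0.27 (edgeR adjusted p = 0.035). Cyp7a1, the rate-limiting enzyme of bile acid synthesis, stood at 183, 73.7, 70.8 and 25.3 CPM against 213 to 423 CPM in wild type at day 3 and 132 to 235 CPM at day 0. Its difference from wild type was log2 -1.80 ± 0.35 (edgeR adjusted p = 0.044), or -2.47 without liver 17, and its change from day 0 was not called (-0.97, edgeR adjusted p = 0.068). Gclc (0.70), Ces1e, a carboxylesterase (0.75), Sgk2, a kinase (0.71), Hyi (0.75) and Fam210a (0.61) were higher, and Scara5, a ferritin receptor, was lower (-1.20).

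The 3 most stable differences were of other kinds. C77080 stood at 42.2, 65.5, 48.6 and 55.8 CPM against 118 to 154 CPM at day 0 and 90.5 to 115 CPM in wild type at day 3. It was lower than both, by log2 -1.33 and -0.97 (edgeR adjusted p = 1e-06 and 0.0019). Ndufs5, a subunit of mitochondrial complex I, stood at 0.271, 0, 0.395 and 0 CPM, that is 2 counts in 4 libraries, against 2.82 to 8.65 CPM at day 0 and 3.93 to 7.35 CPM in wild type at day 3. The ratio of day 0 over labelled knockout was 38.1 (95% counting interval 10.3 to 318) and that of wild type at day 3 was 31.2 (8.35 to 262). BC002163 did the reverse, with 9.21, 10.2, 5.14 and 11.7 CPM against at most 1.64 CPM in any wild-type liver. Its 319 bases match the Ndufs5 transcript at 317 aligned positions (99.4%), so reads of the 2 cannot be assigned safely. Their summed level overlapped between groups, at 5.53 to 11.7 CPM in labelled knockout livers, 3.95 to 9.17 CPM at day 0 and 4.20 to 7.73 CPM in wild type at day 3.

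Of the 17 genes 7 lie on chromosome 4, which carries Bmp8b (123105165 to 123132099, plus strand, GRCm38) and 720 of the tested genes (6.53%). Measured from Bmp8b, Ndufs5 lies 0.58 Mb away, Hyi 4.74 Mb, C77080 6.09 Mb, Cyp4a10 7.57 Mb, Cyp4a14 7.61 Mb, Nr0b2 10.4 Mb and Cyp7a1 117 Mb. Within 10 Mb, 187 genes were tested and 5 of them called. What the position has to do with the difference was not tested.

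**Figure D5:**
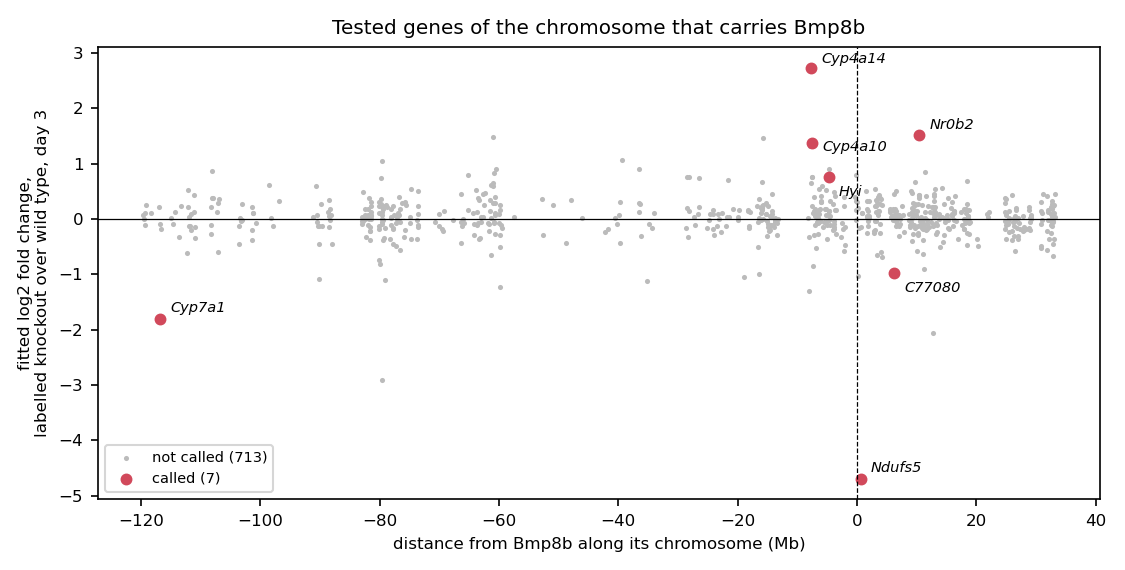
Fitted log2 fold change of labelled knockout over wild-type livers at day 3 (vertical axis) against distance from Bmp8b in Mb (horizontal axis), 1 point per tested gene of chromosome 4, with the 7 called genes in red. Of these, 5 lie within 10 Mb of Bmp8b, 3 of them above 0 and 2 below.

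The 4 labelled knockout livers differed among themselves by many-fold in some genes. Plekhh2 stood at 6.77, 104, 106 and 0 CPM, and also spread from 0.784 to 337 CPM at day 0. Cish, a STAT5-induced inhibitor of growth hormone signalling, stood at 63.9, 101, 1.98 and 7.74 CPM, high in livers 17 and 18 and low in 19N and 20. Bcl6, a repressor of STAT5 targets, stood at 43.9, 8.28, 97.6 and 77.9 CPM, high in 19N and 20 and lowest in 18. G0s2, an inhibitor of adipose triglyceride lipase, stood at 6.23, 42.9, 84.2 and 89.9 CPM, lowest in liver 17. Mup17 at 660, 344, 73.5 and 75.5 CPM split the livers as Cish did. These are 6 genes with the largest spread among the 4 livers, Hamp being the other, and of them only Mup17 and Hamp were called against day 0. Clock genes gave 2 rises and 4 falls among 15 tested, and 1 rise when 1 of day 0 livers 13 to 16 or labelled knockout livers 18 and 19N was left out. Nr1d1, a clock repressor, stood at 69.2 to 82.2 CPM against 145 to 172 CPM. The hour at which livers were taken is not given in the sources used here, and its part was not tested.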

How the data were processed

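RNA sequencing libraries of 14 livers in the hepatectomy experiment were used. The table the authors deposited holds whole-number read counts by Ensembl gene, not normalized, for 53379 genes, of which 53274 had a symbol in the annotation used here. Per the submitters' processing notes, reads were aligned to GRCm38 with TopHat2 2.0.11 and counted with HTSeq; the annotation release and strand setting are not given in the sources used here. Total counts ran from 2450358 to 6914274 per library. A count of 0 was taken to allow 3 counts (95% confidence).

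The deposited counts were fitted in edgeR 4.0.16 (R 4.3.3) with the 3 groups of the experiment in 1 model, TMM normalization, filterByExpr and the two-sided quasi-likelihood F-test (11 residual degrees of freedom). This left 11026 genes, and those with a p under 0.05 after Benjamini-Hochberg adjustment were called. Folds and log2 fold changes are fitted, levels are normalized CPM, and Bmp8b was compared by an exact permutation test. The pipeline was tested on simulated data, where 64 of 96 genes changed 2-fold and 94 of 97 changed 4-fold were called for labelled knockout against day 0. Alternatives were DESeq2 1.42.0, RLE factors, other filters, limma 3.58.1 voom weights, a fold threshold, 2 groups only, a replicate block and leaving out each library.

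The members and gene lists were chosen with earlier results of these data known. Named genes are Bmp8b and Bmp8a; the 10 largest rises and falls among called protein-coding genes of at least 10 CPM in the higher group and no overlap; up to 4 called members of a list with the smallest p, and uncalled members that define it; the 10 smallest p between day 3 groups; and the 6 with the largest spread over the labelled knockout livers of at least 20 CPM. Other list members and the other 7 genes called between the day 3 groups were named after their values were seen. Figures were drawn with matplotlib 3.10.9. Results for some genes are not reported here.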

Additional observations from a re-analysis of the deposited data

Results flagged for a closer look

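Single livers stood apart from the rest of their group in 22 of 369 gene and group combinations examined, by a gap to the nearest liver that was large against the group's range; chance gives about 1 in 20. Labelled knockout liver 17 was such a liver for Bmp8b (1.08 CPM), Cdkn3 (7.85 CPM), Anln (9.75 CPM), Alb (117414 CPM), Gckr (209 CPM), Dgat2 (343 CPM) and S100a10 (128 CPM). Labelled knockout liver 18 was one for Cyp2d10 (268 CPM) and Fam210a (57.9 CPM), and liver 19N for Lgals1 (53.4 CPM). Day 0 liver 15 was one for Ccnb1 (0.262 CPM), Cdkn3 (0.786 CPM), Arhgef39 (0.786 CPM) and Uhrf1 (1.83 CPM). Day 0 liver 13 was one for Cyp27a1 (539 CPM) and Gstm3 (29.1 CPM). Among wild-type livers at day 3, liver 15 was one for Hamp (27.3 CPM), Gsta2 (2.89 CPM) and Loxl2 (4.20 CPM), liver 14N for Smad9 (5.01 CPM) and Ces1e (46.8 CPM), and liver 12N for Lpl (193 CPM).

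Levels differed between the genotypes for 17 genes by the direct test at day 3, given as log2 fold changes of labelled knockout over wild type. They were higher for BC002163 (4.29), Cyp4a14 (2.73), Nr0b2 (1.51), Cyp4a10 (1.37), Aldh3a2 (0.85), Hyi (0.75), Ces1e (0.75), Sgk2 (0.71), Fabp1 (0.70), Gclc (0.70), Acaa1b (0.65), Ehhadh (0.64) and Fam210a (0.61). They were lower for Ndufs5 (-4.69), Cyp7a1 (-1.80), Scara5 (-1.20) and C77080 (-0.97).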

How the results depend on the processing

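The 1348 calls against day 0 stayed within 1.5 times under every alternative run, from 979 without labelled knockout liver 20 to 1425 without liver 17 and 1518 by DESeq2, except that requiring a change beyond 1.5-fold left 298 (251 higher and 47 lower). It left 4 of 8 fatty acid oxidation rises, 4 of 9 NRF2 target rises, 6 of 10 tubulin and actin rises and 5 of 10 male-biased falls. The same requirement left 434 of 1915 calls for wild type and 2 of 17 for the test between the genotypes at day 3. That last count was 63 by DESeq2, 182 without a filter and between 3 and 40 when 1 library was left out; the cause was not tested. Over named genes and alternatives, 2622 results kept their direction and side of the threshold, 256 lost the call and 0 reversed.

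Mouse numbers 12 to 16 recur in the wild-type groups only, and same-numbered livers deviated together by correlations from -0.022 to 0.091, which does not settle whether they are the same animals; livers 15 and 16 correlated best with their own number. A replicate block as a random effect gave 1299 calls against day 0, 21 between the genotypes at day 3 and 1941 for wild type. It left 8 of the 15 matrix rises. Depth limits low genes such as Bmp8b, with 26 counts in 4 labelled knockout libraries.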
